A study of Mus musculus with 6 samples.

Results

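The insulin and IGF signaling route from receptor to FOXO was followed through 9 genes in bone marrow endothelial cells of diabetic and nondiabetic mice. The 9 genes were the receptor genes Insr and Igf1r, the docking protein genes Irs1 and Irs2, the PI3K subunit gene Pik3r1, the kinase genes Akt1 and Akt2, and the transcription factor genes Foxo1 and Foxo3. They were chosen by symbol, as a pathway, and all 9 were among the 22180 genes with a probe set that names 1 gene. A gene with several such probe sets took the brightest by its mean over the 6 arrays. Each sample was RNA of 5000 sorted endothelial cells from marrow of male C57BL/6J mice, and no allele or transgene is named in the labels. The diabetic group held 3 arrays from mice whose type 2 diabetes came from a high fat diet. The nondiabetic group held 3 arrays from control mice, but their labels repeat the fat content and duration of the diabetic diet (60 kcal% fat, 4 months), so what the controls ate is not settled. The labels do not give the age of the mice or any pooling of animals. They also do not say that each array was a mouse of its own, so the p-values rest on a spread between samples that may be technical.

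Insulin and IGF ligands bind receptor tyrosine kinases, which phosphorylate IRS docking proteins. These recruit PI3K through its regulatory subunit, and the lipid made by PI3K brings AKT to the membrane, where it is activated. AKT phosphorylates many proteins, among them FOXO factors, which then leave the nucleus, so that FOXO target genes are transcribed less while insulin acts. In endothelium this route is known for activating nitric oxide synthase and for carrying insulin across the vessel wall, and FOXO1 is known as a brake on vessel growth. The steps are controlled largely by phosphorylation, which arrays do not measure.

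The promoters of the IRS genes are shown because IRS2 is a textbook example of a gene that is both a pathway member and a FOXO target, and because Irs2 was the most variable of the 9 genes between arrays. Sequences are those of RefSeq for GRCm38.p6, each a stretch upstream of the annotated start and outside any exon of that transcript, read 5′ to 3′ along the gene. Capitals mark the E-box CACGTG and the core of the insulin response element, CAAAACA, which reads TGTTTTG on the printed strand; FOXO factors are known to bind such elements.
Irs1: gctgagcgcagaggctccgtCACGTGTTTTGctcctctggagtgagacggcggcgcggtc
Irs2: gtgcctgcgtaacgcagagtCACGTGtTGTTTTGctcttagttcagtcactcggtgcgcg
Irs4: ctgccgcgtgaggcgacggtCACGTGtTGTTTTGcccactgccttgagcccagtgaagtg
The Irs1 stretch lies at chr1:82291515-82291574 on the minus strand, from 135 to 76 bases before the start. The Irs2 stretch lies at chr8:11008934-11008993 on the minus strand, from 64 to 5 bases before the start. The Irs4 stretch lies at chrX:141725332-141725391 on the minus strand, from 174 to 115 bases before the start. Irs4, a relative of Irs1 and Irs2, is not among the 9 genes and is shown for comparison. In Irs1 the E-box and the element share bases, and in Irs2 and Irs4 a single base lies between them. Irs1 has a further CAAAACA core, not printed, from 32 to 26 bases before its start.

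Windows of 300 bases, 250 before to 50 after the start, were held for 8 of the 9 genes in 13 versions, and for all genes in 32851. Both strands were searched. CAAAACA was found in 2 of the 13 windows, those of Irs1 and Irs2, and in 6.28% of all windows, and CACGTG in the same 2 and in 7.15% of all. An E-box and a CAAAACA core that overlapped or lay within 10 bases of each other were found in 18 of all windows (0.0548%), which belong to 15 genes, Irs1, Irs2 and Irs4 among them. The FOXO consensus core GTAAACA was found in 1 of the 13 windows, an Akt1 window, and in 3.65% of all. The pairing of the motifs was searched for after the sequences were seen. These matches describe letters and show no binding.

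The array medians lay between 5.21 and 5.28 on the log2 scale, and the number of arrays limited the precision. All 20 pan-endothelial markers, among them Cdh5 (VE-cadherin), were above the limit used for dim genes, and their mean per array ran from 8.88 to 9.52 in diabetic and from 8.94 to 9.37 in nondiabetic sorts. Diabetic replicate 1 had the highest value, 9.52, against 8.88 and 8.89 in the other diabetic arrays. The mean of 10 sinusoidal markers ran from 8.16 to 8.77 in diabetic and from 7.67 to 7.83 in nondiabetic arrays, and that of 9 arteriolar markers from 7.59 to 8.17 and from 8.02 to 8.40. Signal of blood cells was present, and the means of 3 lists of blood cell markers were higher in every diabetic than in every nondiabetic array. Those of the erythroid, the megakaryocyte and platelet, and the T and NK lists overlapped between groups. In that order they ran from 6.81 to 7.21, 8.39 to 9.12 and 5.96 to 6.59 in diabetic arrays. In nondiabetic arrays they ran from 6.99 to 7.25, 8.09 to 8.98 and 5.86 to 6.01. The mean of the 8 tested of 12 monocyte and macrophage markers ran from 6.94 to 7.04 in diabetic and from 6.48 to 6.82 in nondiabetic arrays. The other 4, Adgre1, Aif1, Fcgr1 and Mpeg1, were dim. The mean of the 8 tested of 12 neutrophil and granulocyte precursor markers ran from 7.20 to 7.30 and from 6.57 to 7.09. The largest difference was that of S100a8 (0.99), whose nondiabetic values ran from 3.52 to 7.61. The other 4, Camp, Ltf, Mmp8 and Retnlg, were dim and had lower diabetic means. The mean of the 8 tested of 10 B lymphoid markers ran from 6.57 to 6.93 and from 6.30 to 6.51. Of these, 5 had higher and 3, Ebf1, Pax5 and Igll1, lower diabetic means. Cd79a differed by 0.94, with 7.15 in diabetic replicate 1 and 5.15 and 5.32 in the other diabetic arrays. In such sorted bulk samples, fewer cells of a type and less RNA per cell cannot be told apart.

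None of the 9 genes passed the test between diabetic and nondiabetic endothelium, and all 9 had groups that overlapped. Across 13308 tested genes limma called 1 gene (0.00751%) at an adjusted p under 0.05, none of it from this pathway, and 0 of the 8 tested pathway genes. At an unadjusted p under 0.05 the count was 0 of 8, where 4.25% of all tested genes stood. Groups without overlap were found for 0 of 9 pathway genes and for 7.95% of the tested genes, 5.28% with higher and 2.67% with lower diabetic values. Irs1 was left out of the test as dim, with a mean below 5.07, the 40th percentile of gene means. The median difference of the 8 tested genes, diabetic minus nondiabetic, was 0.041 on the log2 scale, beside 0.019 for all tested genes. All 8 differences were above 0 by sign, as were 54.0% of those of all tested genes, but 4 of the 8 turned negative after renewed quantile normalization and, likewise, 4 with array weights.

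**Figure D1:**
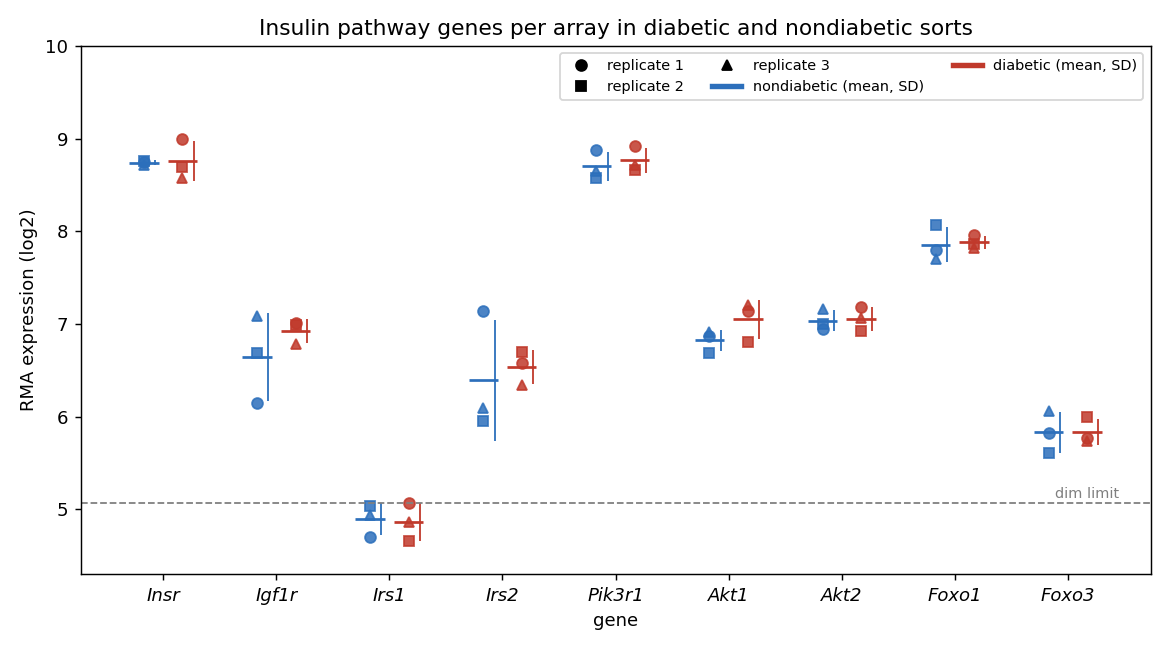
Log2 RMA expression of each of the 9 genes in each array, nondiabetic in blue and diabetic in red, with marker shapes for replicates, a horizontal bar for the group mean and a vertical bar for 1 SD (n = 3). The groups overlap for every gene, the nondiabetic points of Igf1r and Irs2 spread widest, and Irs1 sits at or below the dashed limit for dim genes at 5.07; heights of different genes come from different probes and are not to be compared.

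The receptor genes came first in the pathway. Insr encodes the insulin receptor. Its log2 level was 9.001, 8.69 and 8.58 in diabetic replicates 1 to 3 and 8.75, 8.76 and 8.71 in nondiabetic replicates 1 to 3. The nondiabetic arrays lay inside the range of the diabetic ones, and diabetic replicate 1 was the highest of all. The means were 8.76 ± 0.22 and 8.74 ± 0.03 (SD, n = 3 each), a difference of 0.018 (SE 0.16) with a 95% interval of -0.36 to 0.39, which is 0.78-fold to 1.31-fold (limma adjusted p = 0.997). Diabetic replicate 1 was also the array with the highest endothelial marker mean, 9.52. With that mean as a covariate the Insr difference was 0.048, and without diabetic replicate 1 it was -0.10.

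Igf1r encodes the receptor of insulin-like growth factor I, which can also form hybrids with the insulin receptor. Its log2 level was 7.01, 6.99 and 6.78 in the diabetic arrays and 6.15, 6.69 and 7.09 in the nondiabetic arrays. The nondiabetic group held the lowest and the highest value, replicate 1 and replicate 3. The means were 6.93 ± 0.13 and 6.64 ± 0.47 (SD, n = 3 each), and the difference of 0.29 (SE 0.24) was the widest of the 9, with an interval of -0.27 to 0.84 (limma adjusted p = 0.997). Without nondiabetic replicate 1 the difference was 0.041, and without nondiabetic replicate 3 it was 0.51. In nondiabetic replicate 1 the mean of the monocyte and macrophage markers was also the lowest of the 6 arrays, 6.48. In nondiabetic replicate 3, where Igf1r was highest, that mean was 6.62, and in nondiabetic replicate 2 it was 6.82. Other blood cell lists had other orders over nondiabetic replicates 1 to 3. T and NK markers had 5.86, 5.94 and 6.01, and megakaryocyte and platelet markers 8.27, 8.09 and 8.98. Neutrophil markers had 7.09, 6.76 and 6.57, B lymphoid markers 6.30, 6.51 and 6.34, and erythroid markers 7.19, 7.25 and 6.99. The part of blood cells in the Igf1r values was not tested. The group difference of Insr minus that of Igf1r was -0.27, and the gap between both genes within an array overlapped between groups.

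The IRS docking proteins carry the signal from receptor to PI3K. Irs2 had log2 levels of 6.58, 6.70 and 6.34 in the diabetic arrays and of 7.14, 5.95 and 6.09 in the nondiabetic arrays. Nondiabetic replicate 1 was the highest of all 6 and the other nondiabetic arrays the lowest, so the nondiabetic group enclosed the diabetic one. The lowest and highest array were 2.30-fold apart. The means were 6.54 ± 0.18 and 6.39 ± 0.65 (SD, n = 3 each), a difference of 0.14 (SE 0.31) with an interval of -0.56 to 0.85 (limma adjusted p = 0.997).

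The Irs2 value depended on nondiabetic replicate 1. Without that array the difference was 0.52 (SE 0.19), with an interval of 0.07 to 0.97, an unadjusted p = 0.0302 and a limma adjusted p = 1. Without nondiabetic replicate 2 it was -0.081. The within-group SD of Irs2, 0.48, was exceeded by that of 9.13% of the tested genes, and the median tested gene had 0.24. Another probe set that names Irs2 together with 9530052E02Rik had means of 4.71 and 4.79, below the limit for dim genes. It was also highest in nondiabetic replicate 1, at 5.01.

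Irs1, the docking protein through which insulin acts in muscle, had log2 levels of 5.07, 4.66 and 4.86 in diabetic and of 4.70, 5.04 and 4.94 in nondiabetic arrays. No group stood higher, and means of 4.86 ± 0.21 and 4.89 ± 0.17 (SD, n = 3 each) lay under the limit, where signal and background are hard to separate. The other Irs1 probe set had means of 4.69 and 4.55. With no filter on dim genes, Irs1 had a difference of -0.032 (SE 0.15) and a limma adjusted p = 0.997. Irs4, whose promoter is printed above, had a mean of 4.43 over the 6 arrays and was dim as well. Irs2 was thus the only one of these 3 IRS genes above the limit.

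**Figure D2:**
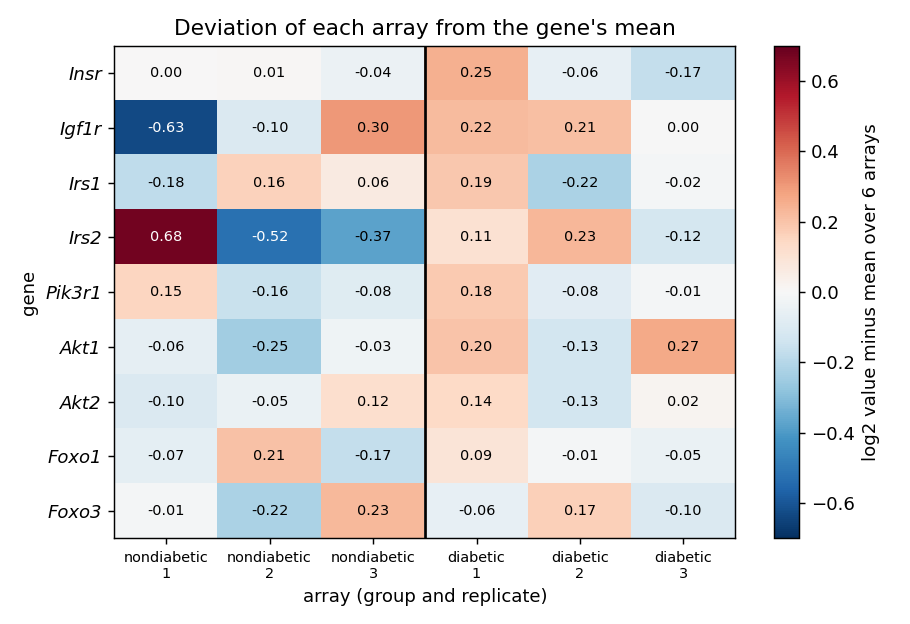
Deviation of each array from the gene's mean over the 6 arrays, on the log2 scale, with nondiabetic arrays left of the black line and diabetic arrays right of it. Nondiabetic replicate 1 holds both extremes, 0.68 above the mean for Irs2 and 0.63 below it for Igf1r, while no array of Pik3r1, Akt2 or Foxo1 is more than 0.21 from the gene's mean.

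Pik3r1 encodes the p85 alpha regulatory subunit, which binds phosphorylated IRS proteins and holds the catalytic subunit. Its log2 levels were 8.92, 8.66 and 8.72 in diabetic and 8.88, 8.58 and 8.65 in nondiabetic arrays. In each group replicate 1 was the highest, and the numbers overlapped almost fully. The means were 8.76 ± 0.14 and 8.70 ± 0.16 (SD, n = 3 each), a difference of 0.06 (SE 0.16) with an interval of -0.31 to 0.43, or 0.81-fold to 1.35-fold (limma adjusted p = 0.997).

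AKT1 is the broadly expressed AKT kinase and the main form in endothelium, and AKT2 is the form that insulin uses to move glucose transporters in muscle and fat. Akt1 had log2 levels of 7.14, 6.81 and 7.20 in diabetic and of 6.87, 6.69 and 6.91 in nondiabetic arrays. Diabetic replicates 1 and 3 were above every nondiabetic array, and diabetic replicate 2 was not. The means were 7.05 ± 0.21 and 6.82 ± 0.12 (SD, n = 3 each), a difference of 0.23 (SE 0.17) with an interval of -0.16 to 0.61, and the smallest unadjusted p of the 8 tested genes, 0.214 (limma adjusted p = 0.997). Its sign held in every alternative tried, as it did for Igf1r alone of the others, with values from 0.096 with array weights to 0.35 without diabetic replicate 2.

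Akt2 was the steadiest of the 9 genes. Its log2 levels were 7.18, 6.92 and 7.07 in diabetic and 6.95, 6.999 and 7.16 in nondiabetic arrays, with complete overlap and 1.20-fold between the lowest and the highest. The difference was 0.022 (SE 0.15), with an interval of -0.33 to 0.37 (limma adjusted p = 0.997). The group difference of Akt1 was 0.20 above that of Akt2, and the gap between both genes within an array overlapped between groups.

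The FOXO factors stand at the end of the route. Foxo1, the main FOXO factor of endothelium, had log2 levels of 7.96, 7.86 and 7.82 in diabetic and of 7.80, 8.07 and 7.70 in nondiabetic arrays. The diabetic arrays lay between the nondiabetic ones. The difference was 0.021 (SE 0.16), with an interval of -0.35 to 0.39 (limma adjusted p = 0.997). The dimmer Foxo1 probe set had means of 6.00 ± 0.34 and 5.84 ± 0.30 (SD, n = 3 each), a difference of 0.16, so both sets had overlapping groups.

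Foxo3, a FOXO factor known for stress resistance, had log2 levels of 5.77, 6.00 and 5.74 in diabetic and of 5.82, 5.61 and 6.06 in nondiabetic arrays. The nondiabetic group again enclosed the diabetic one. The difference was 0.0044 (SE 0.17), with an interval of -0.40 to 0.40 (limma adjusted p = 0.998). The group difference of Foxo1 was 0.017 above that of Foxo3, again with overlap of the gap within arrays.

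**Figure D3:**
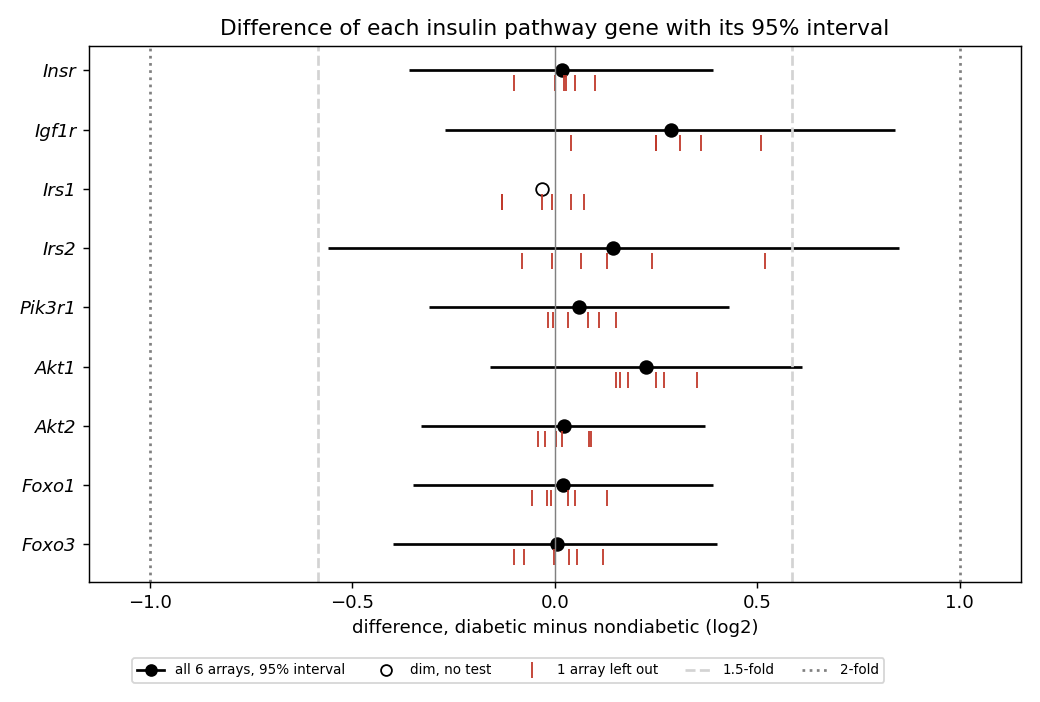
Difference between diabetic and nondiabetic arrays on the log2 scale for each gene, with the 95% interval of limma as a line; red ticks give the value with 1 array left out, and Irs1, dim and untested, has an open circle. Every interval holds 0 and lies between the dotted lines at 2-fold; those of Igf1r, Irs2 and Akt1 pass the dashed 1.5-fold line.

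The intervals bound the size of a difference that these arrays leave possible, before any adjustment for the number of genes. All 8 lay inside 2-fold in either direction, and 5 lay inside 1.5-fold: those of Insr, Pik3r1, Akt2, Foxo1 and Foxo3. Of all tested genes 89.4% and 46.7% had such intervals. For Irs2 and Igf1r the bound was weaker: the Irs2 interval passed 2-fold without diabetic replicate 1 (upper bound 1.02) and the Igf1r interval without nondiabetic replicate 3 (upper bound 1.02). Without diabetic replicate 3 both did, with upper bounds up to 1.08.

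The other genes of the pathway were taken from 8 lists with 111 entries, of which 102 were measured and 86 tested. None passed the limma test after adjustment, 7 had an unadjusted p under 0.05 (8.14%, beside 4.25% of all tested genes), and 12 had groups without overlap (14.0%, beside 7.95%), 9 higher and 3 lower in diabetic sorts. Among the 9, Pdk4 passed the limit for dim genes only through its diabetic arrays. Of the 86, 54 had higher and 32 lower means in diabetic arrays. Diabetic replicate 1, the array with the highest endothelial marker mean, also had the highest list mean in 6 of the 8 lists and shared the highest, 7.35, with nondiabetic replicate 3 for the PI3K and AKT genes. For the FOXO targets, for example, it had 7.43 and the others up to 7.10. Its part in these values was not tested, and the list medians are given with the lowest and highest value found when 1 array was left out. Values follow in the order of the route, for the 3 genes of smallest p in each list and those without overlap.

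Of the ligands and further receptors, 3 of 5 measured genes were tested. Igf1, the growth factor that binds the IGF1 receptor, differed by 0.07 (SE 0.21), Igf2 by 0.06 (SE 0.20), and Igf2r, which clears IGF-II, by 0.21 (SE 0.26). All 3 overlapped, and their median of 0.069 was -0.012 without nondiabetic replicate 3 and 0.16 without nondiabetic replicate 2. The insulin gene Ins2 was dim, at a mean of 4.91.

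Of 12 tested adaptors beside IRS, 6 had higher and 6 lower means, with a median of 0.05. It was -0.0052 without nondiabetic replicate 1 and 0.096 without nondiabetic replicate 2. Ptpn11 encodes SHP2, a phosphatase that couples IRS and other docking proteins to the RAS route. It stood at 7.94, 7.84 and 7.70 in diabetic and at 7.35, 6.94 and 7.66 in nondiabetic arrays, all diabetic above all nondiabetic, a difference of 0.51 (SE 0.21, limma unadjusted p = 0.0392, adjusted p = 0.997). Sh2b1, an adaptor that enhances insulin receptor signaling, differed by 0.74 (SE 0.32), carried by diabetic replicate 3 at 7.83, where the other diabetic arrays had 6.66 and 6.76. Sos2, an exchange factor for RAS, was lower in all diabetic arrays, by -0.28 (SE 0.17).

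Of 9 tested PI3K and AKT genes beside Pik3r1, Akt1 and Akt2, 3 had higher and 6 lower means, with a median of -0.12. It was -0.24 without diabetic replicate 1 and 0.0043 without diabetic replicate 2. Pik3cg, the catalytic subunit gamma known from leukocytes, stood at 7.45 ± 0.33 against 6.66 ± 0.86 (SD, n = 3 each). Its levels were 7.52, 7.74 and 7.09 in diabetic and 5.98, 6.37 and 7.63 in nondiabetic arrays, a difference of 0.79 (SE 0.40). Marker means were higher in all diabetic arrays for monocytes (6.99 against 6.64) and neutrophils (7.25 against 6.81). In nondiabetic replicate 3, where Pik3cg was 7.63, these means were 6.62 and 6.57. T and NK markers had 6.04, 6.59 and 5.96 in diabetic and 5.86, 5.94 and 6.01 in nondiabetic arrays. Over nondiabetic replicates 1 to 3, megakaryocyte and platelet markers had 8.27, 8.09 and 8.98. B lymphoid markers had 6.30, 6.51 and 6.34 there, and erythroid markers 7.19, 7.25 and 6.99. The part of blood cells in the Pik3cg values was not tested. Pik3r3, another regulatory subunit, stood at 8.20 ± 0.57 against 8.89 ± 0.45, a difference of -0.68 (SE 0.32) with an interval of -1.43 to 0.06. Pik3c2a, a class II PI3K, differed by -0.31 (SE 0.25). The groups of all 3 overlapped.

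Of 14 tested brakes on the pathway, 9 had higher and 5 lower means, with a median of 0.087. Leaving out diabetic replicate 1 gave 0.021, and leaving out nondiabetic replicate 2 gave 0.21. Inpp5d, which encodes the lipid phosphatase SHIP1 of blood cells, stood at 8.32, 7.91 and 8.39 in diabetic and at 7.88, 7.82 and 7.88 in nondiabetic arrays. All diabetic values were higher, with a difference of 0.35 (SE 0.17, limma unadjusted p = 0.0781, adjusted p = 0.997). The means of the monocyte and neutrophil marker lists were higher in the same arrays, and the part of blood cells was not tested. Phlpp2, a phosphatase that removes an activating phosphate from AKT, also had groups without overlap, with a difference of 0.17 (SE 0.15). Trib1, a pseudokinase, and Ppp2r5b, a subunit of phosphatase PP2A, differed by 0.37 (SE 0.22) and 0.30 (SE 0.19).

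Of 19 tested kinases and substrates downstream of AKT, 14 had higher and 5 lower means, with a median of 0.075. It was 0.014 without diabetic replicate 1 and 0.18 without diabetic replicate 2. Rheb, the small GTPase that activates mTOR complex 1, stood at 8.32, 7.84 and 8.10 in diabetic and at 7.51, 7.37 and 7.76 in nondiabetic arrays. All diabetic values were above all nondiabetic ones, with a difference of 0.54 (SE 0.19) and an interval of 0.11 to 0.97 (limma unadjusted p = 0.0201, adjusted p = 0.997). Mlst8, a subunit of both mTOR complexes, stood at 6.27 ± 0.10 against 5.92 ± 0.12 (SD, n = 3 each), also without overlap, a difference of 0.35 (SE 0.15, limma unadjusted p = 0.0475, adjusted p = 0.997). Eif4ebp1, a translation repressor that mTOR inactivates, differed by 0.29 (SE 0.23).

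Of 9 tested FOXO relatives and regulators, 5 had higher and 4 lower means, with a median of 0.015. Leaving out diabetic replicate 1 gave -0.045, and leaving out nondiabetic replicate 3 gave 0.10. Sgk3, a kinase related to AKT, differed by 0.43 (SE 0.22), the deacetylase gene Sirt1 by 0.32 (SE 0.22) and the nuclear export receptor gene Xpo1, which carries FOXO out of the nucleus, by -0.21 (SE 0.16). All 3 had overlapping groups.

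Of 17 tested FOXO target genes, 11 had higher and 6 lower means, with a median of 0.17. It was 0.034 without diabetic replicate 1, 0.29 without diabetic replicate 3, 0.055 with array weights and 0.0008 with the limit for dim genes at the 60th percentile. Genes without overlap went both ways, 3 higher (among them Pdk4, close to the limit for dim genes) and 2 lower, beside 5.28% and 2.67% of all tested genes. Spry2, an inhibitor of growth factor signaling known as a FOXO target in endothelium, stood at 8.20, 8.09 and 8.34 in diabetic and at 7.68, 7.90 and 7.75 in nondiabetic arrays, a difference of 0.43 (SE 0.15, limma unadjusted p = 0.0215, adjusted p = 0.997). Bcl6, a transcriptional repressor, differed by 0.43 (SE 0.17, limma unadjusted p = 0.0364, adjusted p = 0.997). Pdk4, the kinase that restrains pyruvate oxidation, differed by 0.37 (SE 0.21) and had 5.77 in diabetic replicate 1 alone, with the other arrays from 4.96 to 5.23. Its nondiabetic mean of 4.97 lay under the limit for dim genes, which it passed only through its diabetic arrays. Its lack of overlap rests on 4.99 in diabetic replicate 3 against nondiabetic values up to 4.97, both under that limit.

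The 2 FOXO targets whose diabetic values were all lower were a mitochondrial and a liver enzyme. Sod2, the mitochondrial superoxide dismutase, stood at 7.53, 7.38 and 7.24 in diabetic and at 7.82, 7.88 and 7.71 in nondiabetic arrays. All diabetic values were lower, by -0.42 (SE 0.15, limma unadjusted p = 0.0249, adjusted p = 0.997). Pck1, the enzyme of glucose synthesis in liver, differed by -0.16 (SE 0.15) with no overlap, at means of 5.43 and 5.59.

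Genes through which muscle, fat and liver respond to insulin were mostly dim here: 6 of 9 measured, among them the transporter gene Slc2a4 (4.78) and the adipocyte hormone gene Adipoq (4.56), were under the limit. The tested ones were Gys1, glycogen synthase, with a difference of 0.12 (SE 0.16), the glycogen targeting subunit gene Ppp1r3c with 0.21 (SE 0.15) and the lipid droplet gene Plin1 with 0.06 (SE 0.16). Ppp1r3c was higher in all diabetic arrays. The median of the 3 was 0.12, with 0.022 without nondiabetic replicate 3 and 0.21 without diabetic replicate 2.

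**Figure D4:**
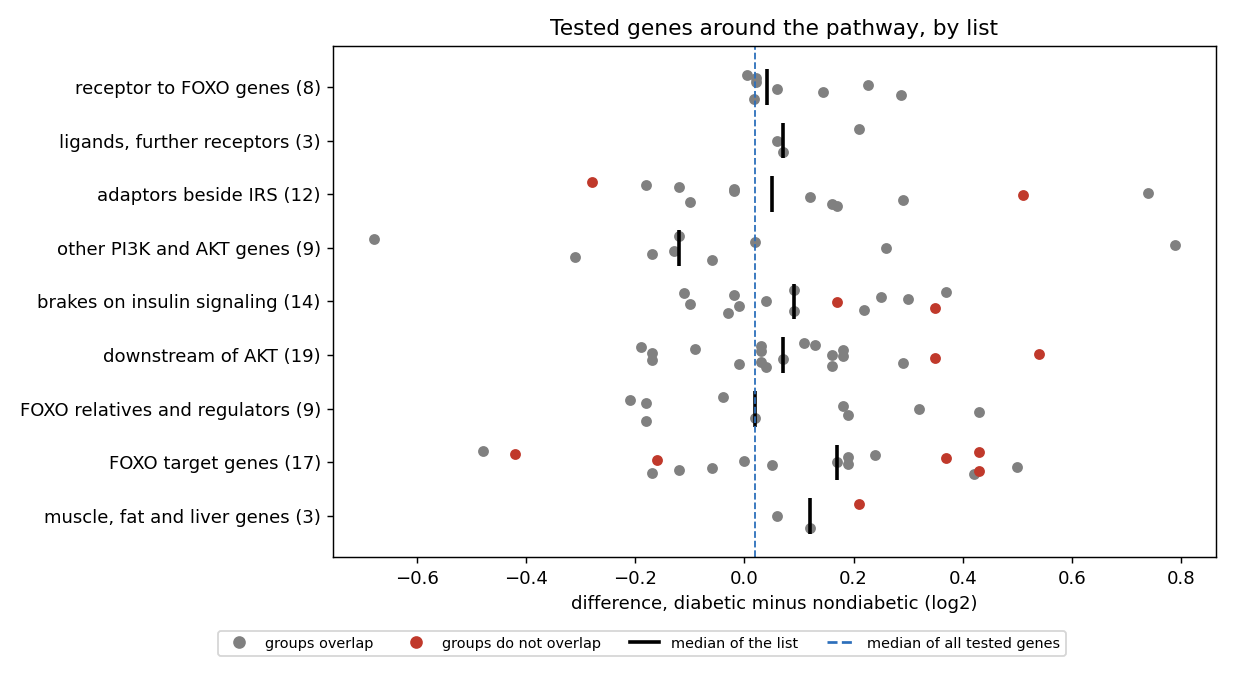
Difference between diabetic and nondiabetic arrays on the log2 scale for every tested gene of the route and of the 8 lists around it (number tested in brackets); red points are genes whose groups do not overlap, black bars list medians and the dashed line the median of all tested genes, 0.019. The 8 genes of the route sit between 0.0044 and 0.29 and hold no red point; list medians run from -0.12 to 0.17.

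Likeness over the 6 arrays was described for the most variable genes of the route, as the root mean square difference between values centred on each gene's mean. Nearest to Irs2 were Mfsd14a (0.10), Trp53rkb (0.11) and Hgsnat (0.12), each highest in nondiabetic replicate 1. Nearest to Igf1r were Ostf1 (0.033), Fam120b (0.066) and BC024978 (0.073), each lowest in nondiabetic replicate 1. With 6 arrays and 13308 genes, near matches of this kind are a description only.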

How the data were processed

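The authors deposited 1 table of log2 expression values made with RMA, per the submitters' processing notes; which program and annotation it used is not given in the sources used here. RMA sets arrays to a common distribution, so a shift shared by most genes would not be seen. Of 41345 probe sets, 23521 named 1 gene in the platform annotation (which can be old), 1814 several and 16010 none; 22180 genes took their brightest probe set. Genes dimmer on average than the 40th percentile of gene means (log2 5.07) were not tested, which left 13308.

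The fit used lmFit and eBayes of limma 3.58.1 under R 4.3.3, on all 6 arrays with no covariate, with Benjamini and Hochberg adjustment over all tested genes and a threshold of 0.05. Intervals are unadjusted 95% intervals. The fit was tested on simulated data. Alternatives were other filters, probe set rules and normalizations, moderated variances with trend, array weights, a replicate block, an endothelial covariate and each array left out. An exact permutation test of 3 against 3 cannot go below 0.1 and was not used. The labels do not say whether replicate numbers pair the arrays. Deviations of arrays with the same number correlated by -0.036, -0.064 and 0.016 across genes, which does not settle whether they were paired.

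The 9 genes, the lists and the naming rule (all 9, and in each list the 3 genes of smallest p and those without overlap) were chosen with earlier results of these data known. Promoters came from RefSeq (GRCm38.p6), matched by symbol; the build of the arrays' annotation is not given, so no gene coordinates are printed.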

Additional observations from a re-analysis of the deposited data

How the results depend on the processing

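None of the pathway genes tested under the 16 alternatives was called (smallest adjusted p 0.682); Irs1 was tested only with no filter on dim genes, and Foxo3 was not tested with the filter at the 60th percentile. Igf1r and Akt1 kept their sign throughout. Renewed quantile normalization turned the differences of Insr (-0.012), Akt2 (-0.030), Foxo1 (-0.031) and Foxo3 (-0.013) negative; array weights did so for Insr (-0.033), Pik3r1 (-0.012), Akt2 (-0.050) and Foxo1 (-0.0069), median centring for Foxo3 (-0.0015) and the endothelial covariate for Foxo3 (-0.021). The cause was not tested. With 1 array left out, the differences ranged from -0.10 to 0.10 for Insr, 0.041 to 0.51 for Igf1r, -0.13 to 0.071 for Irs1, -0.081 to 0.52 for Irs2, -0.016 to 0.15 for Pik3r1, 0.15 to 0.35 for Akt1, -0.042 to 0.09 for Akt2, -0.057 to 0.13 for Foxo1 and -0.10 to 0.12 for Foxo3. The median over the 9 genes was 0.022, and ran from -0.016 to 0.081 with an array left out. The only gene called over all tested genes was lost with the filter at the 60th percentile (0 calls by limma, 370 genes at an unadjusted p under 0.05), and calls ran from 0, without nondiabetic replicate 3 (688 genes at an unadjusted p under 0.05), to 1 with an array left out. With the replicate block the differences are the same by construction, 1 gene was called and 545 genes had an unadjusted p under 0.05, beside 566 without it; the block changed no call. No measure of background was held, so how far signal over background limits the dim Irs1 was not tested.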

Other observations

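The 18 promoter windows in which an E-box and a CAAAACA core overlap or lie within 10 bases of each other belonged to 15 genes, of which 9 were measured and 4 tested. Irs1, Irs2 and Irs4 were 3 of the 15. The other tested genes, chosen after the sequences were seen, were Fam214a, Klf11, a Krüppel-like transcription factor, and Pcbp1, an RNA-binding protein gene. Fam214a stood at 6.75 ± 0.47 in diabetic and 6.08 ± 0.30 in nondiabetic sorts (SD, n = 3 each), with no overlap and a difference of 0.68 (SE 0.26, limma unadjusted p = 0.0335, adjusted p = 0.997). Of all tested genes, 7.95% had no overlap and 4.25% a limma unadjusted p under 0.05. Klf11 and Pcbp1 differed by 0.05 (SE 0.16) and 0.33 (SE 0.28), with overlap.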
